A study of Mus musculus with 12 samples.

Results

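Interleukin-22 (IL-22) and interleukin-6 (IL-6) signal through related receptors that end on the same transcription factor, STAT3. The genes described here are the 2 subunits of the IL-22 receptor (Il22ra1 and Il10rb), the 2 subunits of the IL-6 receptor (Il6ra and Il6st), the Janus kinases Jak1 and Tyk2, Stat3 itself, and 3 genes that STAT3 and related signals induce (Socs1, Socs3 and Bcl3). They were taken by symbol from the per-sample read counts, and all 10 were among the 24421 genes counted. The libraries were made from RNA of pancreatic islets, the endocrine tissue scattered through the pancreas, after 6 weeks of high-fat feeding in both genotypes. There were 6 from Il22ra1βKO mice (here BKO), in which Il22ra1 is deleted in the insulin-producing β cells, and 6, for 12 in all, from control Ins2Cre mice (here Cre), which carry Cre recombinase named for the insulin gene Ins2. The labels used here give no age, sex or floxed region. They also leave unsaid whether libraries come from different animals, and the p-values therefore cover only the differences among these samples, which may be technical.

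Both receptors work as pairs. A ligand-specific subunit binds the cytokine, Il22ra1 for IL-22 and Il6ra for IL-6, and a shared subunit, Il10rb or Il6st (gp130), completes the complex. The kinases JAK1 and TYK2, bound to the receptor tails, phosphorylate STAT3, which moves to the nucleus and switches on its targets. Among these, SOCS1 and SOCS3 feed back to shut off the kinases and receptors. IL-22 is known to act mainly on epithelial cells, and in islets it has been studied as a protector of β cells against stress. IL-6 can be made by many cells of an islet preparation, including vessel, stromal and immune cells.

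The depth, counted as reads assigned to a gene, was 10356093 to 11902217 for BKO and 11444273 to 12397139 for Cre. The share of reads set aside for low alignment quality was 27.3% in Cre-1 and between 16.7% and 22.2% in the other libraries. All 12 genes of a β-cell marker list, among them Ins1 and Ins2, were detected, and their summed level ranged from 99235 to 157692 CPM (per-million read counts, scaled by TMM) in BKO and from 122377 to 153573 CPM in Cre. Markers of other cells were present too. All 12 tested endothelial markers had a positive fold change in BKO (median log2 0.45; summed level 624 to 895 CPM in BKO and 492 to 703 CPM in Cre), as did 11 of 12 stellate and mesenchymal markers (median 0.44; 176 to 264 CPM and 129 to 230.0 CPM), all 10 tested acinar markers (median 0.53, none at an unadjusted p under 0.05; 1467 to 5281 CPM and 238 to 6729 CPM) and 8 of 12 duct markers (median 0.18; 3404 to 4584 CPM and 3305 to 3993 CPM). At an unadjusted p under 0.05, 12 endothelial, 7 stellate and mesenchymal and 5 duct markers were higher in BKO, and DESeq2 called 8, 2 and 2. Of 10 tested macrophage markers, 9 had a negative fold change (median -0.41, with 129 to 159 CPM in BKO and 139 to 184 CPM in Cre). Of these, 3 were lower and 1 higher at an unadjusted p under 0.05, and DESeq2 called 1 in each direction. Of the β-cell markers, 11 of 12 had a negative fold change (median -0.18), with 3 at an unadjusted p under 0.05 and 1 called by DESeq2. All 11 markers of alpha and delta cells, the islet cells that secrete glucagon and somatostatin, had a positive one (median 0.36), with 9 at an unadjusted p under 0.05 and 3 called by DESeq2. Over all tested genes, 52.8% had a positive fold change. At an unadjusted p under 0.05, 8.7% of them were higher and 4.66% lower in BKO, and DESeq2 called 1.64% in either direction. In whole islets, more cells of a type and more RNA per cell cannot be told apart.

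Per length of exon, Stat3 was the most abundant of the 10 genes and Il22ra1 by far the least. In the Cre libraries Stat3 was at 50.2 ± 2.96 RPKM (CPM divided by the exon length in kilobases; SD, n = 6) and Jak1 at 33.6 ± 0.745 RPKM, with ranges that did not overlap. Socs3 (22.6 ± 4.79 RPKM), Il6st (20.5 ± 2.09 RPKM) and Bcl3 (20.1 ± 1.13 RPKM) came next and overlapped one another. Below them, Il6ra was at 8.28 ± 0.693 RPKM, Tyk2 at 6.04 ± 0.423 RPKM and Il10rb at 4.91 ± 0.453 RPKM. Only Tyk2 and Il10rb overlapped among these 3. Socs1 was at 0.775 ± 0.243 RPKM and Il22ra1 at 0.0867 ± 0.0596 RPKM. The shared gp130 subunit was thus 2.48 times as abundant per length as the IL-6-specific subunit Il6ra, Jak1 5.56 times as abundant as Tyk2, and Socs3 29.2 times as abundant as Socs1. The length used joins all annotated exons of a gene, so the order and these ratios depend on that annotation.

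**Figure D1:**
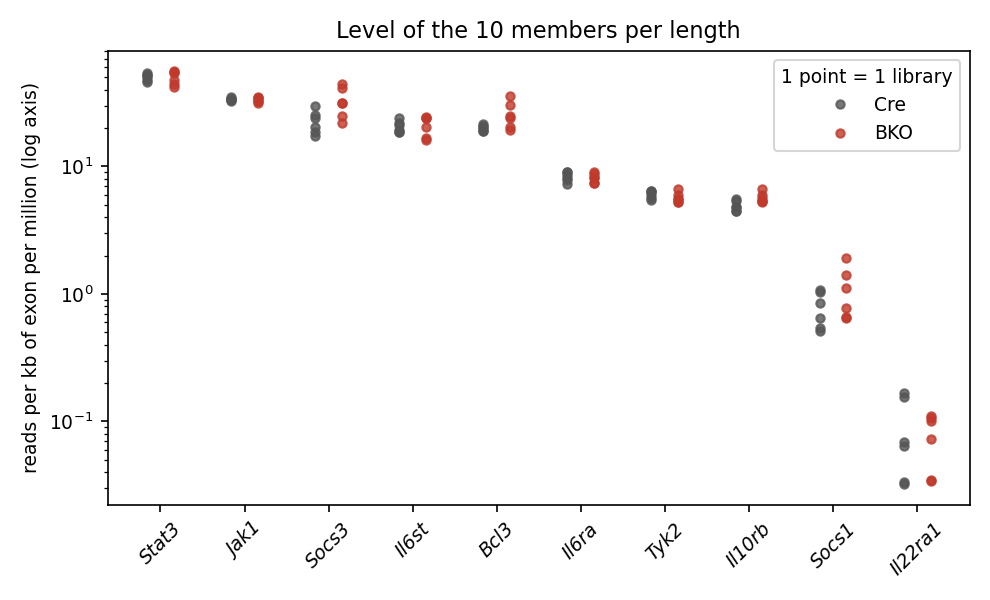
Level of the 10 genes per length of exon in each library, in RPKM on a log axis, ordered by the Cre mean. Each point is 1 library, grey for Cre and red for BKO; Stat3 lies highest and Il22ra1, with 1 to 5 reads in a library, lowest.

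No gene of the group passed the test between genotypes. Genotypes were compared with the quasi-likelihood test of edgeR over 13583 genes, adjusted by Benjamini-Hochberg with a threshold of 0.05, and it called 0% of all genes. Of the 10 members 9 could be tested, Il22ra1 having too few reads. At an unadjusted p under 0.05, 3 of the 9 were higher in BKO (Il10rb, Socs3 and Bcl3) and 0 lower, beside 8.7% of all genes higher and 4.66% lower. DESeq2 called 0 of the 9 and 1.64% of all genes, and limma-voom 0 of the 9 and 0% of all genes. The median log2 fold change of the 9 was 0.030, against 0.0078 for all genes. As the members were chosen with earlier results of these data known, such comparisons with all genes are descriptive. No member had its BKO and Cre libraries fully apart, as 0.508% of all genes did (0.331% with BKO higher and 0.177% with BKO lower). In the same analysis of simulated counts, edgeR recovered 82% of genes changed 1.5-fold and 92% of those changed 2-fold, but only 32% of those raised by 25% or lowered by the same factor. None of the 9 members had a fitted fold change as large as 1.5-fold. In the measured libraries edgeR called 0% of genes, although the fitted log2 fold changes of Il6 and Lrg1 were 1.53 ± 0.47 and 1.55 ± 0.39 (SE). The recovery shares are given over genes in general. Recovery at the spread of a single member, such as Socs1 (SE 0.28) or Socs3 (SE 0.19), was not tested.

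**Figure D2:**
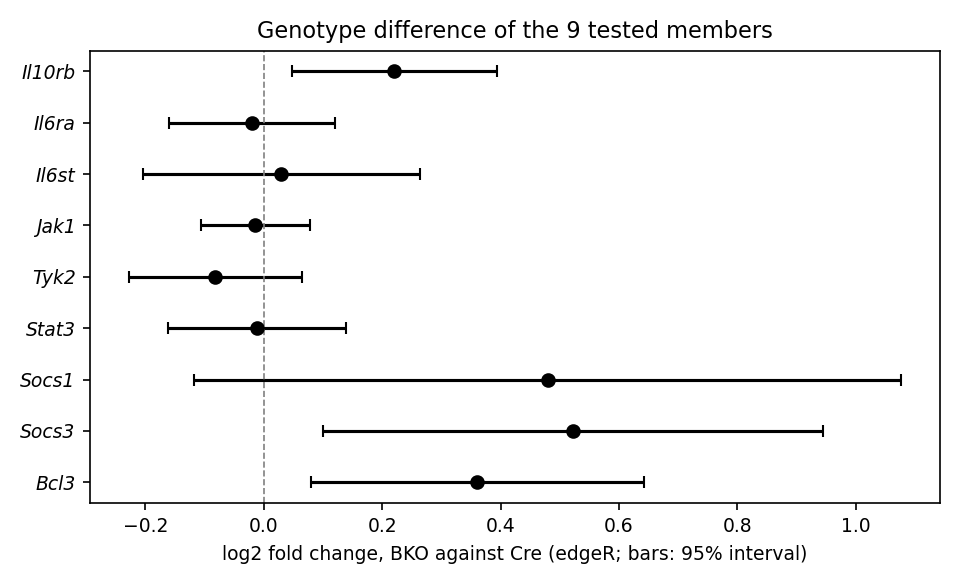
Log2 fold change of the 9 tested members, BKO against Cre, with 95% intervals from edgeR's quasi-likelihood test. The intervals of Il10rb, Socs3 and Bcl3 lie above 0, while those of Il6ra, Il6st, Jak1, Tyk2, Stat3 and Socs1 include it; none passed the adjusted threshold.

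Il22ra1, the deleted gene, encodes the subunit that gives the receptor its specificity for IL-22. It lies on chromosome 4 from 135728172 to 135752140 (mm10, plus strand). The BKO libraries held 3, 1, 3, 1, 3 and 2 of its reads (BKO-1 to BKO-6) and the Cre libraries 5, 1, 5, 2, 2 and 1 (Cre-1 to Cre-6). The groups overlapped almost completely, and 10 of the 12 libraries were at or under the floor of 3 reads used here. The summed reads, 13 and 16, gave a ratio of 0.875 with a 95% interval of 0.387 to 1.94 (exact binomial, counting error only), so a difference was not detectable at this depth. These counts do not check the labels, because a read total cannot show which exons were lost. Il22, which encodes its ligand, had 7 reads in all 12 libraries together, 4 in BKO and 3 in Cre, found in 5 libraries. Il22ra2, which encodes a soluble decoy for IL-22, had no read in any library.

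Il10rb, the subunit that completes the receptors for IL-22, IL-10 and the lambda interferons, lies on chromosome 16 from 91406164 to 91425834. It was at 20.2, 25.5, 21.5, 20.6, 22.7 and 20.3 CPM in the BKO libraries and at 21.2, 18.1, 18.4, 20.3, 17.0 and 17.1 CPM in the Cre libraries. All 6 BKO libraries lay above the Cre mean, and 3 above the highest Cre library, Cre-1. The means were 21.8 ± 2.06 and 18.7 ± 1.73 CPM (SD, n = 6 each), and the log2 fold change was 0.22 ± 0.083 (SE; 95% interval 0.05 to 0.39). It did not pass (edgeR adjusted p = 0.259, unadjusted p = 0.0157). The fold change was 0.16 without BKO-2 and 0.24 without Cre-1. The annotated gene Gm21970 overlaps it on the same strand, so reads in the shared stretch cannot be assigned with certainty.

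The IL-6 receptor genes had small fold changes, with wide spread in the shared subunit. Il6ra, the ligand-binding subunit on chromosome 3 (89864059 to 89913196), was at 75.7, 64.0, 71.1, 63.9, 70.6 and 78.4 CPM in BKO and at 62.4, 73.4, 70.3, 67.7, 78.0 and 77.4 CPM in Cre. The groups overlapped throughout, with a log2 fold change of -0.02 (95% interval -0.16 to 0.12; edgeR adjusted p = 0.944). Il6st, the gp130 subunit shared by IL-6, IL-11, LIF and related cytokines, lies on chromosome 13 (112464070 to 112510086). It was at 185, 266, 180.3, 272, 266 and 228 CPM in BKO and at 206, 208, 233, 214, 265 and 243 CPM in Cre. The BKO libraries split, with BKO-1 and BKO-3 below every Cre library and BKO-2, BKO-4 and BKO-5 above every one. The coefficient of variation was 18.0% in BKO and 10.2% in Cre, and the log2 fold change was 0.03 (95% interval -0.20 to 0.26; edgeR adjusted p = 0.95).

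Jak1 had the narrowest interval of the group. It encodes a kinase used by nearly all receptors of this family, and lies on chromosome 4 (101152367 to 101265282). Its levels were 234, 251, 226, 236, 248 and 247 CPM in BKO and 236, 238, 244, 242, 252 and 244 CPM in Cre. The log2 fold change was -0.01 with a 95% interval of -0.11 to 0.08, a fold between 0.929 and 1.06 (edgeR adjusted p = 0.939). Tyk2, the kinase that pairs with Il10rb, lies on chromosome 9 (21104068 to 21131243). It was at 38.2, 36.2, 40.9, 45.9, 37.9 and 35.9 CPM in BKO and at 37.2, 44.0, 43.5, 39.1, 40.7 and 44.2 CPM in Cre. Of the BKO libraries only BKO-4 was above the Cre mean, and the log2 fold change was -0.08 (95% interval -0.23 to 0.06; edgeR adjusted p = 0.677). It was -0.15 without BKO-4 (edgeR adjusted p = 0.245) and -0.13 without Cre-1 (adjusted p = 0.372).

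Stat3 messenger RNA had a fold change near 0. The gene lies on chromosome 11 (100885098 to 100939540) and overlaps Stat5a on the opposite strand, as Jak1 does Raver2 and Gm24468. Opposite-strand overlaps were also annotated for Il6ra (Gm42809), Tyk2 (1700084C06Rik) and Bcl3 (Gm16175 and Gm16174), and Jak1 overlaps Gm12785 on the same strand. Whether reads were counted by strand is unknown, and reads from such overlaps cannot be told apart. The levels were 422, 529.9, 399, 515, 524 and 457 CPM in BKO and 438, 453, 493, 475, 511 and 499 CPM in Cre. As for Il6st, BKO-1 and BKO-3 lay below every Cre library and BKO-2, BKO-4 and BKO-5 above every one. The means were 474 ± 56.3 and 478 ± 28.2 CPM (SD, n = 6 each), and the log2 fold change was -0.01 with a 95% interval of -0.16 to 0.14 (edgeR adjusted p = 0.972). These values are of messenger RNA, and phosphorylated STAT3 protein was not measured here.

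The genes that answer to these signals were the members with the highest fold changes, and the same libraries led each of them. The sequences around their RefSeq starts (GRCm38.p6, 5′ to 3′) are shown because these genes vary together across libraries. Of the 10 members 9 had such a window, 250 bases before to 50 after the start. In all, 3 motifs were searched on both strands. They were a STAT element (TTCNNNGAA), an interferon regulatory factor (IRF) element (GAAANNGAAA) and the κB element bound by NF-κB, and 8.3%, 3.44% and 8.46% of 32851 such windows held them. Capitals mark the match; the Socs1 stretch holds 2 IRF matches that overlap, and the Bcl3 match lies just after the start.
Socs3, STAT match, chr11:117969487-117969546, minus strand: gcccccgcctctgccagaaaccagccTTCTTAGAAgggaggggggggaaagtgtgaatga
Socs1, IRF matches, chr16:10785577-10785646, minus strand: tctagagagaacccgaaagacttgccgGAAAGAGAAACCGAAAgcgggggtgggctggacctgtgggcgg
Bcl3, κB match, chr7:19822736-19822765, minus strand: agtcggcggcagGGGAAGTCCCgctgcccg
Il6, κB match, chr5:30012994-30013093, plus strand: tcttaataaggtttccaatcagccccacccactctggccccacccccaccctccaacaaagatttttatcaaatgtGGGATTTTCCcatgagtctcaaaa
Among the other members Il22ra1 held 1 κB match, and Il6ra, Il6st, Jak1, Tyk2 and Stat3 held no match to any of the 3 motifs in this window. A match is a run of letters and was not tested as a binding site. The motifs were chosen after the windows were read, so the shares over all windows do not test the matches. Socs3, Socs1 and Bcl3 each held a different motif, and any bearing on their co-variation was not tested. The RefSeq start of Socs3 used for its window lies inside the longer gene of the GENCODE annotation.

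Socs3 encodes the inhibitor that binds gp130 and JAK and ends IL-6 signalling (chromosome 11, 117966079 to 117970047). It was at 90.9, 128, 63.6, 90.9, 118 and 72.1 CPM in BKO and at 86.8, 58.4, 73.5, 50.1, 69.6 and 53.8 CPM in Cre. BKO-2 and BKO-5 were the highest of the 12, 4 BKO libraries lay above the highest Cre library, and BKO-3 and BKO-6 lay within the Cre range. The means were 93.9 ± 25.2 and 65.4 ± 13.8 CPM (SD, n = 6 each), and the log2 fold change was 0.52 ± 0.19 (SE; 95% interval 0.10 to 0.94). The gene did not pass (edgeR adjusted p = 0.279, unadjusted p = 0.0196; DESeq2 adjusted p = 0.178).

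Bcl3 encodes a nuclear IκB protein that partners the p50 and p52 subunits of NF-κB and is induced by STAT3 in other settings (chromosome 7, 19808462 to 19822770). Its levels were 61.1, 75.6, 47.7, 59.3, 89.0 and 50.2 CPM in BKO and 53.6, 48.4, 51.7, 46.8, 50.8 and 46.8 CPM in Cre. The Cre libraries lay close together, with a coefficient of variation of 5.61%, while that of the BKO libraries was 24.7%. Again 4 BKO libraries were above the highest Cre library, with BKO-5 and BKO-2 on top and BKO-3 and BKO-6 within the Cre range. The log2 fold change was 0.36 ± 0.13 (SE; 95% interval 0.08 to 0.64; edgeR adjusted p = 0.259), and 0.23 without BKO-5.

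Socs1, the inhibitor best known for restraining interferon receptors (chromosome 16, 10782240 to 10785536), was expressed at a low level. Between 17 and 63 reads were counted in a library, which gave 1.90, 5.56, 1.92, 3.22, 4.07 and 2.25 CPM in BKO and 3.01, 1.87, 3.10, 1.5, 2.47 and 1.57 CPM in Cre. BKO-2 and BKO-5 were again the highest, and the other BKO libraries, apart from BKO-4, lay within the Cre range. The log2 fold change was 0.48 ± 0.28 (SE; 95% interval -0.12 to 1.08; edgeR adjusted p = 0.504). It was 0.22 without BKO-2.

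**Figure D3:**
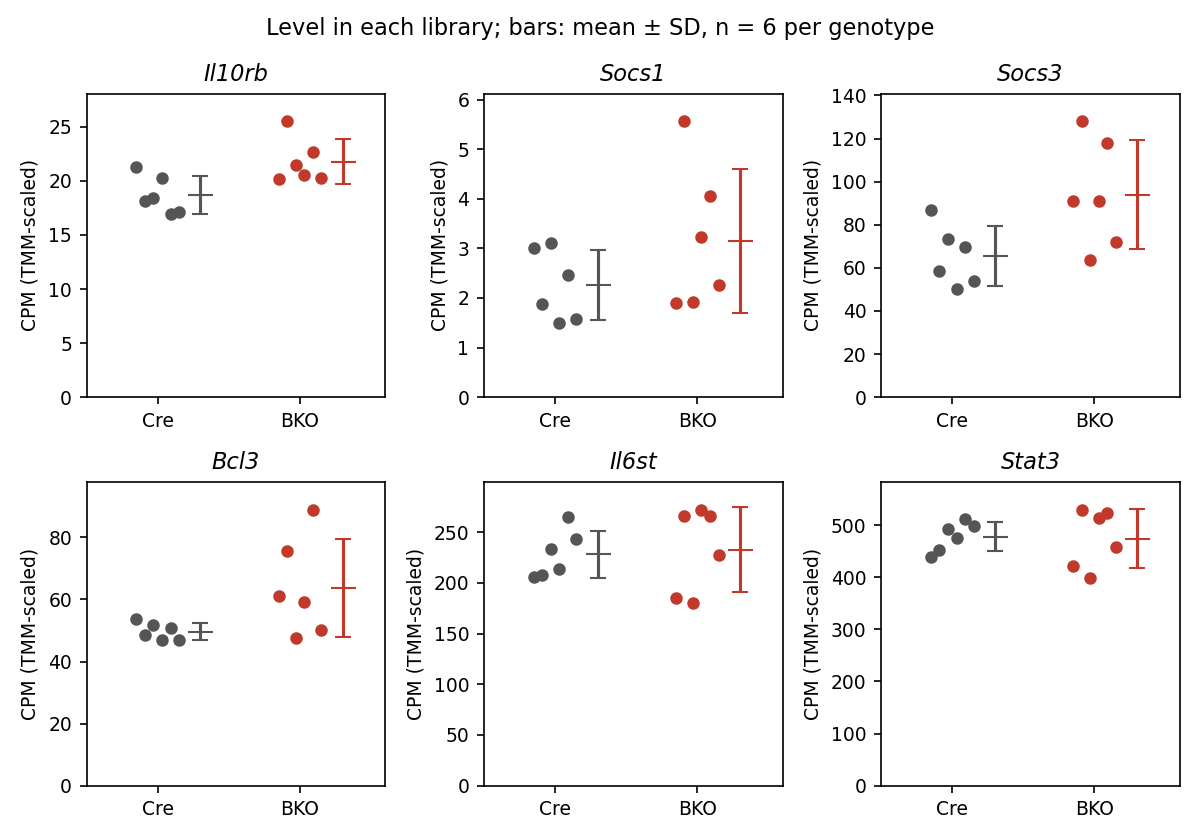
Level of 6 members in each library, in TMM-scaled CPM on axes that start at 0; grey points are Cre and red points BKO, with the mean ± SD (n = 6) beside them. For Socs1, Socs3 and Bcl3 the highest BKO libraries lie above all Cre libraries, and for Il6st and Stat3 the BKO libraries lie on both sides of the Cre range.

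The fold changes of Socs3, Bcl3 and Socs1 were lower with an endothelial, stellate or acinar marker score as a covariate. With the endothelial score (mean log2 CPM of that list) as a covariate, the log2 fold change was 0.097 for Socs3, 0.042 for Bcl3 and -0.27 for Socs1, against 0.17 for Il10rb. With the stellate and mesenchymal score, added after the data were examined, the values were 0.22, 0.15, 0.060 and 0.23 in the same order, and with the acinar score 0.41, 0.28, 0.27 and 0.17. Over all genes, those at an unadjusted p under 0.05 went from 1182 higher and 633 lower to 264 and 192 with the endothelial score, 385 and 289 with the stellate score and 813 and 353 with the acinar score, so fewer genes in general were at that level with a score in the fit. Across libraries the relations of Socs3, Bcl3 and Socs1 with the endothelial and stellate scores had r between 0.494 (Socs1) and 0.556 (Socs1), and none passed (adjusted permutation p of 0.243 to 0.385). Their absolute r was higher with the duct score (0.807, 0.804 and 0.801 in that order) and the β-cell score (-0.717, -0.681 and -0.875). None of those passed either, and neither score was tried as a covariate. The endothelial score itself was 5.72 ± 0.185 in BKO and 5.28 ± 0.201 in Cre, so part of the genotype difference may be absorbed when it is a covariate. BKO-2 and BKO-5, which led Socs1, Socs3 and Bcl3, had the lowest β-cell scores of the 12 libraries (9.65 and 9.64). They also had the highest endothelial (5.91 and 5.95), stellate (3.23 and 3.14) and duct scores (6.57 and 6.56). The highest acinar and macrophage scores were in Cre-2 (9.08) and Cre-4 (3.01). The part of cell makeup in the result was not tested.

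Across libraries, with each genotype's mean subtracted from log2 CPM, the pairs that passed fell mostly into 2 sets. All 45 pairs of the 9 tested members and Il6 were compared, with p-values from 100000 permutations within genotype, and in 7 pairs both Pearson's r and Spearman's rho passed an adjusted p of 0.05. Because the libraries share scaling and cell makeup, these values describe co-variation only. Il6st and Stat3 were the closest pair, with r = 0.971 (permutation p = 2e-05, Benjamini-Hochberg adjusted 0.0009) and rho = 0.930 (permutation p = 0.00029, adjusted 0.00405; n = 12). The r was 0.982 within BKO and 0.930 within Cre (exact permutation p = 0.00833 and 0.00972, n = 6 each), and 0.947 without the 2 libraries farthest from the median of Il6st. Stat3 was also the gene most like Il6st among 11930 ranked, followed by Btbd9 (r = 0.956) and H6pd (r = 0.945). For Stat3 the next were the kinase gene Mapk14 (r = 0.962) and Susd6 (r = 0.946). Jak1 had r = 0.812 with Stat3 (adjusted permutation p = 0.0565) and 0.789 with Il6st (adjusted permutation p = 0.0571), and 0.632 and 0.614 without the 2 farthest libraries. The rho of Jak1 was 0.832 with Stat3 and 0.755 with Il6st (adjusted permutation p = 0.0399 and 0.0668).

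The other set held Socs1, Socs3, Bcl3 and the cytokine gene Il6. Socs3 and Il6 had r = 0.907 (permutation p = 0.00012, adjusted 0.0027) and rho = 0.902 (permutation p = 0.00036, adjusted 0.00405; n = 12). That r was 0.927 within BKO and 0.907 within Cre (exact permutation p = 0.00972 and 0.0167, n = 6 each), and 0.911 without the 2 libraries farthest from the median of Socs3. Socs3 and Bcl3 had r = 0.866 (permutation p = 0.00033, adjusted 0.0045) and rho = 0.951 (permutation p = 0.00011, adjusted 0.00405), with r of 0.943 within BKO, 0.992 within Cre (exact permutation p = 0.0125 and 0.00278) and 0.788 without the 2 farthest libraries. Socs1 had r = 0.900 with Socs3 and 0.867 with Il6 (adjusted permutation p = 0.0045 each), and Bcl3 had r = 0.760 with Il6 (adjusted permutation p = 0.0045). Socs1 and Bcl3 did not pass by Pearson's r (r = 0.755, adjusted permutation p = 0.0564), though rho was 0.783 (adjusted permutation p = 0.0460). Between the sets no pair passed over the 12 libraries. Stat3 had r = 0.639 with Socs1 (adjusted permutation p = 0.225) and 0.508 with Socs3 (adjusted permutation p = 0.317), and Il6st had 0.635 and 0.480 (adjusted permutation p = 0.225 and 0.317). Within BKO these 4 values were higher, at 0.916, 0.816, 0.858 and 0.693 (exact permutation p = 0.0181, 0.0694, 0.0333 and 0.131), and within Cre they were -0.121, -0.273, 0.0647 and -0.0208 (exact permutation p = 0.775, 0.576, 0.906 and 0.967). These exact p-values are unadjusted, and within BKO not all of them were under 0.05. Whether the sets lie apart within the BKO libraries, and whether the genotypes differ in this, was not tested. Il10rb and Il6ra varied in opposite directions, with r = -0.786 (adjusted permutation p = 0.0310), and -0.602 without the 2 farthest libraries. That r was -0.978 within Cre and -0.592 within BKO (exact permutation p = 0.00139 and 0.214, n = 6 each).

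**Figure D4:**
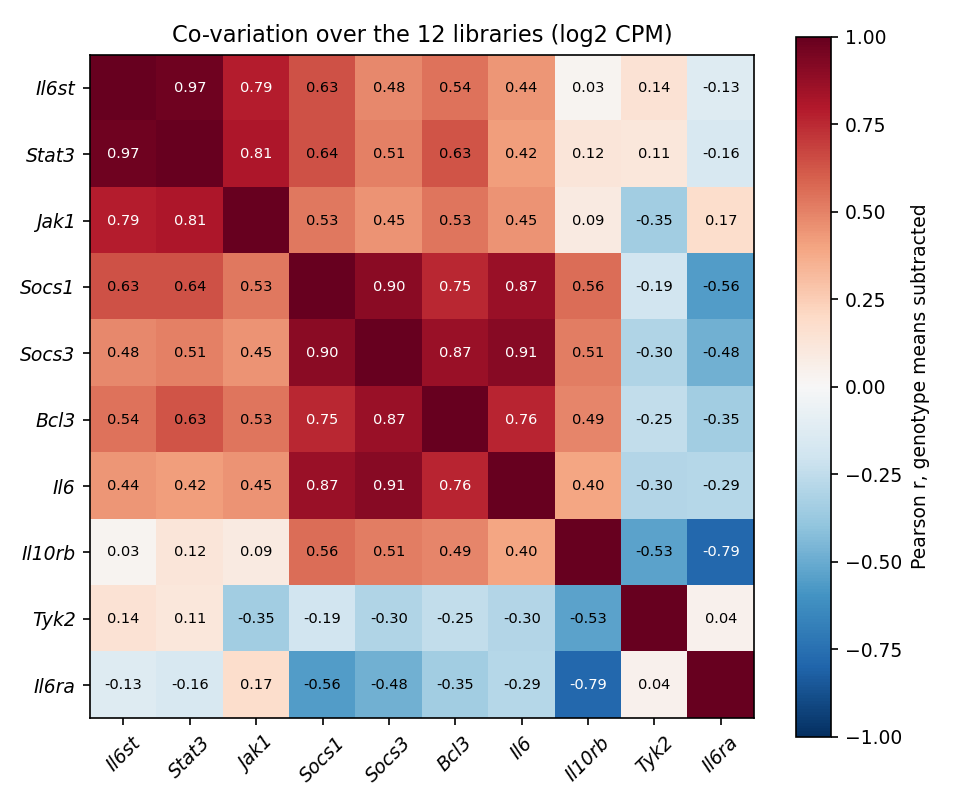
Pearson's r between the 9 tested members and Il6 over the 12 libraries, from log2 CPM with the mean of each genotype subtracted; red is positive and blue negative. Il6st, Stat3 and Jak1 form one dark block (0.79 to 0.97) and Socs1, Socs3, Bcl3 and Il6 another (0.75 to 0.91), and the values between the blocks run from 0.42 to 0.64.

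The genes most like each member were ranked by the same measure. Socs3 was nearest to Helz2 (r = 0.963) and the immediate early gene Ier3 (r = 0.958), Socs1 to the transcription factor gene Junb (r = 0.957) and Stom (r = 0.957), and Bcl3 to Slc37a1 and the RNA-editing enzyme gene Adar (r = 0.932 each). Il10rb was nearest to Parp14 (r = 0.959), Slfn4 (r = 0.921) and Parp12 (r = 0.910). Il6ra was nearest to Ncapd2 (r = 0.946), Jak1 to Prdm2 (r = 0.952) and Tyk2 to Fbxl2 (r = 0.895). With library measures the same genes had weaker relations, and 0 of 120 passed after adjustment. Those with the highest absolute r were Socs1 with the β-cell score (r = -0.875, rho = -0.874; permutation p = 0.0012 and 0.0015, adjusted 0.138 and 0.175; r = -0.862 without the 2 farthest libraries), then Il6st and Stat3 with that score (r = -0.840 and -0.807, adjusted permutation p = 0.138 and 0.191; -0.646 and -0.619 without the 2 farthest) and Socs3 with the duct score (r = 0.807, rho = 0.734; permutation p = 0.0052 and 0.0152, adjusted 0.138 and 0.316; r = 0.681 without the 2 farthest). The part of cell makeup in the co-variation was not tested.

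**Figure D5:**
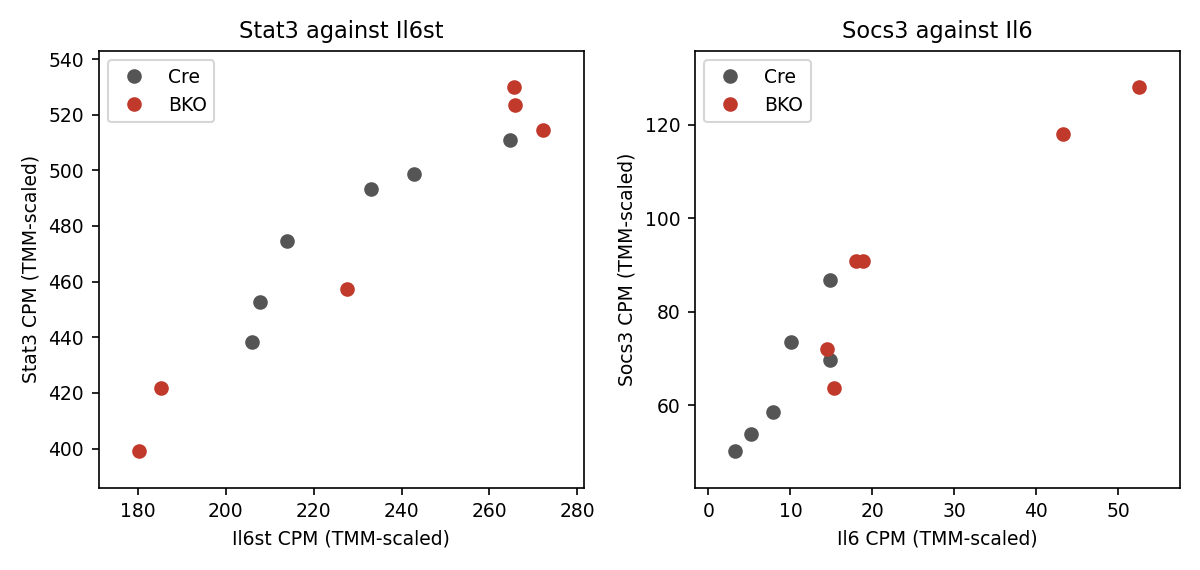
Stat3 against Il6st and Socs3 against Il6 in each library, in TMM-scaled CPM on linear axes that do not start at 0; grey points are Cre and red points BKO. In both panels the libraries of the 2 genotypes lie along one band, and BKO-2 and BKO-5 lie at the upper end for Il6 and Socs3.

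Around these 10 genes, 83 others of the pathway were listed by role, and 64 had enough reads to be tested. With edgeR 0 of them passed over all genes (0%). An unadjusted p under 0.05 was found for 23 with BKO higher and 3 with BKO lower (8.7% and 4.66% of all genes), and DESeq2 called 3 higher and 1 lower. Of the 64, 49 had a positive fold change, against 52.8% of all genes, with a median of 0.15. The lists were chosen with earlier results of these data known, so these shares describe the lists and are no test.

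Of the 6 lists, the ligands of the gp130 receptors and of the IL-10-family receptors, listed together, had the highest median fold change. Of 15 listed ligand genes 6 could be tested, 5 of them positive, with a median log2 fold change of 1.00. Il6 was at 18.9, 52.6, 15.3, 17.9, 43.2 and 14.5 CPM in BKO and at 14.8, 7.84, 10.01, 3.27, 14.8 and 5.22 CPM in Cre. BKO-2 and BKO-5 were far above the rest, 5 BKO libraries exceeded the highest Cre library, and BKO-6 lay within the Cre range. The log2 fold change was 1.53 ± 0.47 (SE; edgeR adjusted p = 0.212). Lif, a gp130 cytokine that signals with Lifr, was at 1.17 ± 0.37 (edgeR adjusted p = 0.224) and Il11 at 0.83 ± 0.35 (adjusted p = 0.330). Clcf1, which signals through gp130 with Lifr and Cntfr, averaged 4.25 ± 1.59 CPM over the BKO and 1.78 ± 0.832 CPM over the Cre libraries (SD, n = 6 each; edgeR adjusted p = 0.148, DESeq2 adjusted p = 0.0200). Osmr, the receptor subunit for oncostatin M, was at 0.67 ± 0.25 (edgeR adjusted p = 0.268), and the other 9 tested receptors had a fold change between -0.15 (Cntfr) and 0.22 (Ifngr1).

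Target genes of STAT3 were mostly positive, and the Jak, Stat and feedback genes were mixed. Of 22 listed targets 17 could be tested, 16 of them positive with a median of 0.42, and 9 were higher at an unadjusted p under 0.05. Over all genes 52.8% were positive and 8.7% were higher at that level. Lbp, which encodes the lipopolysaccharide-binding protein of the acute-phase response, averaged 1.92 ± 0.577 CPM over the BKO and 0.708 ± 0.346 CPM over the Cre libraries (log2 1.42 ± 0.33; edgeR adjusted p = 0.130, DESeq2 adjusted p = 0.0148). Lrg1, another acute-phase gene, was at 25.6 ± 12.8 and 8.72 ± 3.22 CPM (log2 1.55 ± 0.39, above every ligand; edgeR adjusted p = 0.168, DESeq2 adjusted p = 0.0166). Lcn2, which encodes an iron-sequestering defence protein, was at 106, 171, 48.1, 67.9, 150.1 and 79.97 CPM in BKO and at 53.4, 43.5, 61.8, 42.9, 69.5 and 45.5 CPM in Cre, so that BKO-2 and BKO-5 led here as well. The kinase gene Pim1 was at a log2 fold change of 0.35 ± 0.12 (edgeR adjusted p = 0.206).

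Among 7 tested Jak and Stat genes 4 were positive, with a median of 0.046. Jak2 was at 0.19 ± 0.065 and Jak3, a kinase of lymphoid receptors, at 0.39 ± 0.14 (edgeR adjusted p = 0.222 and 0.254). Of 14 further feedback genes 8 were positive and 6 negative. Cish, an inhibitor known as a STAT5 target, was at 60.8, 92.7, 81.7, 91.3, 64.7 and 72.2 CPM in BKO and at 88.9, 87.2, 104, 109.6, 103 and 107 CPM in Cre. Here 4 BKO libraries lay below all Cre libraries, unlike for Socs1 and Socs3. Its log2 fold change was -0.37 ± 0.10 (edgeR adjusted p = 0.169, DESeq2 adjusted p = 0.0377), and that of Socs2, also a STAT5 target, was -0.36 ± 0.12 (edgeR adjusted p = 0.242). All 10 NF-κB genes that partner or surround Bcl3 were positive, with a median of 0.24 and 5 at an unadjusted p under 0.05. Beside them, 52.8% of all genes were positive and 8.7% were higher at that level. The list was led by the NF-κB inhibitor gene Tnfaip3 (0.50 ± 0.16, edgeR adjusted p = 0.199) and by Nfkbiz (0.31 ± 0.12, adjusted p = 0.273).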

How the data were processed

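Islet RNA libraries of 6 BKO and 6 Cre samples were made with a VAHTS kit and read on a NovaSeq sequencer, per the labels' protocols. HISAT2 2.0.5, HTSeq and the mm10 build are named in the submitters' processing notes; for the annotation and the strandedness, nothing is given in those sources. For each sample the authors deposited raw counts of 24421 genes, with 5 summary lines (means of 9.90% and 9.41% without a feature, and 18.6% and 20.2% of low alignment quality, in BKO and Cre) that entered neither the library sizes nor the tests. The authors' series-wide table holds CPM over all lines, its columns summing to 1000000. Dividing by the value of 1 read gave whole numbers, to within 0.001 reads, for 100% of its values, equal to the counts of 24420 genes; the count test on them called 0 genes.

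The main test was edgeR 4.0.16 in R 4.3.3: filterByExpr (13583 genes kept), TMM, robust glmQLFit, glmQLFTest and Benjamini-Hochberg adjustment at 0.05. Log2 CPM used a prior count of 2. Standard errors and 95% intervals come from that test. No library was a copy of another (chi-square over degrees of freedom 4.84 to 28.3 between replicates). Coordinates, overlaps and exon lengths come from GENCODE M21 of GRCm38, which is mm10, and promoter windows from RefSeq (GRCm38.p6). The alternatives were RLE and upper-quartile scaling, other count filters, DESeq2 1.42.0, limma-voom with sample quality weights (limma 3.58.1), the replicate number as a block, endothelial and acinar scores as covariates, and each library left out. Recovered reads and a stellate score were added later. Simulated counts were tested in the same way (13563 genes, 13 false calls).

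The members and lists were chosen with earlier results of these data known. Genes named are the members, Il22 and Il6, up to 4 genes with the smallest p in each pathway list, and for each member the 3 most alike genes (mean log2 CPM of at least 1), of which some are given. Cntfr, Ifngr1, Nfkbiz and Socs2 follow the same rule; Il22ra2 was named after its value was seen. Motifs were chosen after the windows were read.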

Additional observations from a re-analysis of the deposited data

How the results depend on the processing

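The number of genes called between genotypes was 0 in the main analysis, 223 with DESeq2, 364 under the replicate block, and between 0 and 262 with 1 library left out (262 without BKO-4, 110 without Cre-5, 6 without Cre-1 and 5 without BKO-3). RLE and upper-quartile scaling, no count filter, a minimum of 10 reads in every library, limma-voom and the marker scores as covariates gave 0. The numbers are not stated to pair the samples: the same-numbered libraries had correlations of -0.0725 to 0.264 of their deviations, and 4 of 6 BKO and 3 of 6 Cre libraries were closest to their own number. Under the block no member passed (Socs3 0.51, Bcl3 0.33, Il10rb 0.22), and the Il22ra1 difference was -0.026 CPM. No member passed the adjusted threshold under any of the 23 alternatives run. Il10rb, Socs3 and Bcl3 kept a positive fold change in all 23. With the endothelial score the fold change was -0.28 for Il6st, 0.011 for Tyk2 and -0.27 for Socs1, with the stellate score -0.17 for Il6st, and with the acinar score 0.026 for Il6ra; the cause was not tested. With 1 library left out, Il6st ranged from -0.036 to 0.093, Stat3 from -0.061 to 0.033, Il6ra from -0.073 to 0.0064, Jak1 from -0.042 to 0.0027, Tyk2 from -0.15 to -0.071 and the Il22ra1 difference from -0.054 to 0.015 CPM. Depth limits Il22ra1, Il22 and Socs1.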
